A study of Homo sapiens with 6 samples.

Results

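The mRNAs described here encode translation initiation and elongation factors, taken as all genes of the site lists whose symbol starts with EIF or EEF, without the EIF2AK kinases. The rule found 59 of the 8204 genes with a site in any of the 6 libraries. Of these, 55 keep an EIF or EEF symbol in RefSeq (GRCh38.p14), and 4 (EIF2C1, EIF2C2, EIF2C3 and EIF2C4) are older symbols of the Argonaute genes, which act in RNA silencing and are no translation factors. They are counted among the 59 and described apart. The same naming rule, applied to the protein-coding genes of RefSeq, gave 67 genes, and 12 had no site in any library, among them the 4E-T gene EIF4ENIF1, the repressor gene EIF4EBP3, EIF4E3 and the methyltransferase genes of the elongation factors.

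The series asked which RNAs contact AEG-1, a membrane protein of the endoplasmic reticulum made from MTDH, by UV crosslinking, anti-HA precipitation and sequencing of the attached RNA. In all 6 libraries the cells were AEG-1-14, a line derived from HepG3, called a hepatoblastoma line in the labels, which stably expresses AEG1 carrying a C-terminal HA tag (promoter not given in the sources used here). There were 4 groups, HITS-CLIP AEG1 (254 nm UV, 2 libraries), its negative control without UV (2 libraries), PAR-CLIP AEG1 (365 nm UV, 1 library) and its negative control without UV (1 library). No label states that the numbered HITS-CLIP libraries are separate cultures, so p-values and SDs may measure technical spread alone, and PAR-CLIP has no replicate. Over all genes there were 6378 and 5651 sites in HITS-CLIP AEG1 against 60 and 90 in its controls, and 60085 in PAR-CLIP AEG1 against 121 in its control; read depth is unknown. All 6 liver markers examined (ALB, APOB, SERPINA1, TTR, FGB and AFP) had sites in every AEG1 library, whereas of 5 markers of other cell types CD68 alone did. Some of these mRNAs were also found without UV, and ALB had 5 and 10 sites in HITS-CLIP AEG1 against 11 and 9 in its controls.

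Initiation factors bring the ribosome to the start codon. The eIF4F complex binds the cap and unwinds the leader, eIF3 joins it to the small ribosomal subunit, eIF2 carries the initiator tRNA and is recharged by eIF2B, and eIF5B and eIF6 act on the joining of the subunits. During elongation eEF1A delivers aminoacyl-tRNA, the eEF1B subunits recharge it, and eEF2 moves the ribosome along the mRNA. These proteins are made in the cytosol. Several of their mRNAs belong to the TOP class, which start with a C and a run of pyrimidines and whose translation is controlled together with that of ribosomal proteins.

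The start of the mRNA is where that class is defined, and 8 PAR-CLIP AEG1 sites on factor mRNAs began within the first 30 nt. The first 30 bases are shown for 6 of these genes, those with 1 usable start in the RefSeq table (GRCh38.p14, promoter entries from 250 bases before the start), with a C and at least 4 following C or T letters from the first base in capitals.
EEF1A1: CTTTTTCgcaacgggtttgccgccagaaca
EEF2: CTCTTCCgccgtcgtcgccgccatcctcgg
EIF2S3: CTCTTTTggcaacatggcgggcggagaagc
EIF4A2: CTTTTCagtcgggcgctgagtggtttttcg
EIF3B: atggctgggctgtagccgtcgcggcgcgcg
EIF4H: ctggttcctctcggagcggagacggcaaat
They lie on chr6:73521003-73521032 (minus strand), chr19:3985434-3985463 (minus), chrX:24054956-24054985 (plus), chr3:186783577-186783606 (plus), chr7:2354827-2354856 (plus) and chr7:74174356-74174385 (plus). The PAR-CLIP sites ran from nt 4 to 1741 on EEF1A1, 1 to 210 on EEF2, 23 to 122 on EIF2S3, 8 to 293 on EIF4A2, 12 to 143 on EIF3B and 1 to 60 on EIF4H, counted along the mRNA of the site lists, whose start was not checked against that of the RefSeq gene. Searched on the mRNA strand at the first base alone, such a pyrimidine start was found on 12 of 48 factor genes with an entry (25%), against 1404 of 27305 genes in the whole table (5.14%). The whole table is not limited to the 8204 genes with a site, so the shares come from unlike sets. Of these 12, EEF1A1 and EEF2 were hit in both HITS-CLIP AEG1 libraries, EIF3M and EIF4B had a site in 1 of them, and the other 8 had none. Of the 36 factor genes without such a start, 8 were hit in both HITS-CLIP AEG1 libraries. A pyrimidine start thus occurred on mRNAs with and without HITS-CLIP sites.

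In HITS-CLIP AEG1, sites lay on a minority of the factor mRNAs, and both libraries were led by EEF2 and EEF1A1. Replicate 1 held 63 sites on 19 factor genes and replicate 2 held 49 sites on 12. Of all 8204 genes, 1862 and 1702 had a site in these libraries, a minority too. By either library it was 20 of 59 factor genes (33.9%), against 27.3% of all genes. The controls held 2 sites on 2 genes each. The averages were 56 ± 9.9 sites in HITS-CLIP AEG1 and 2 ± 0 in its controls (SD, n = 2 each), a ratio of 28, with both AEG1 libraries above both controls; over all mRNAs the ratio was 80.2. An exact permutation test of 2 against 2 libraries, two-sided, gave p = 0.333, the smallest that this design allows. Sites in both AEG1 libraries were found on 11 of the 59 genes (18.6%), where 16.1% of all 8204 genes had them, so the factor genes stood near the background. With at least 2 sites in each library the count was 6 of 59 (10.2%), against 8.03% of all genes. Without sites of 25 nt or less it was 9 of 59 (15.3%), against 13.5% of all genes. In PAR-CLIP AEG1 58 of 59 genes (98.3%) had a site, against 97.6% of all genes, with EEFSEC the exception. The share of all sites that lay on factor mRNAs was 0.988% (exact 95% binomial interval 0.760 to 1.26) and 0.867% (0.642 to 1.14) in HITS-CLIP AEG1 and 0.819% (0.748 to 0.894) in PAR-CLIP AEG1. In the HITS-CLIP controls it was 3.33% (0.406 to 11.5) and 2.22% (0.270 to 7.80), on 2 sites each. These intervals cover counting error only.

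**Figure D1:**
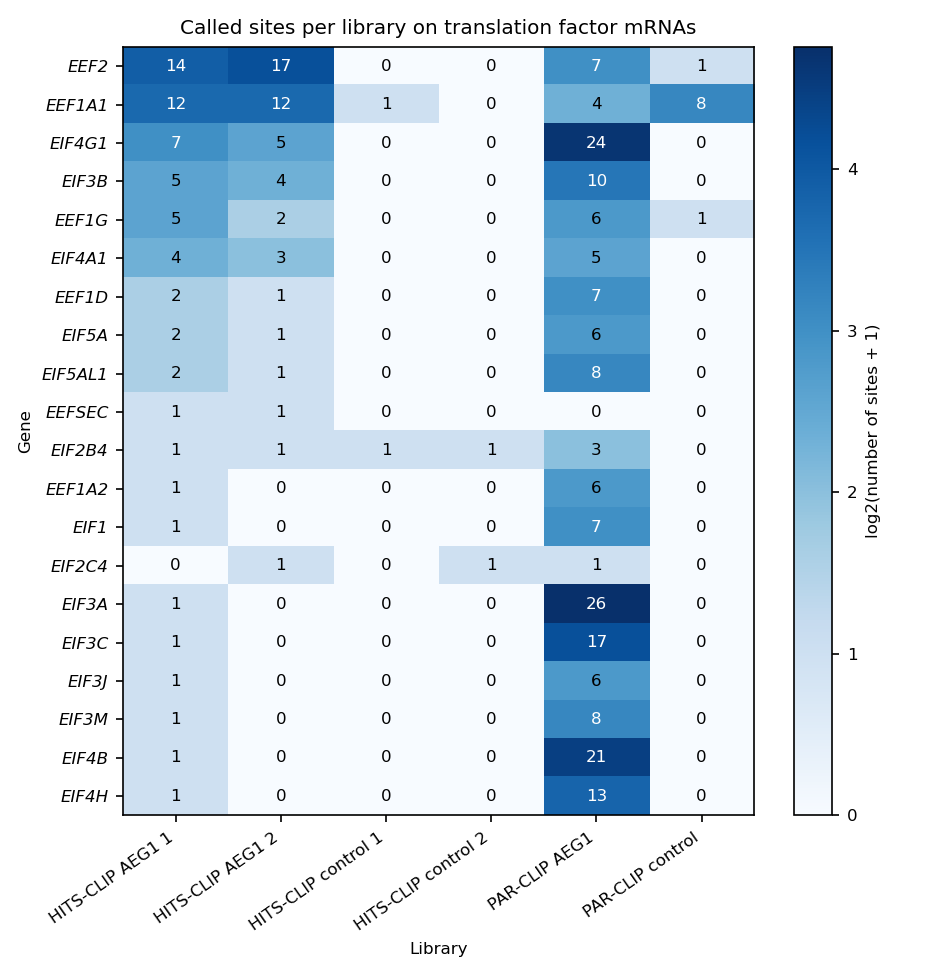
Number of called sites in each of the 6 libraries (columns) for the 20 factor genes with a site in a HITS-CLIP library or a control (rows), written in each cell and shaded by log2(number of sites + 1). EEF2 and EEF1A1 lead both HITS-CLIP AEG1 libraries, with 12 to 17 sites, whereas among the 20 genes drawn EIF3A and EIF4G1 have most sites in PAR-CLIP AEG1, 26 and 24.

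The unirradiated controls held sites on 5 factor genes, 8.47% of the 59, where 1.76% of all genes had a site in any control. They were EEF1A1, EEF2, EEF1G, EIF2B4 and EIF2C4. In the PAR-CLIP control 10 of 121 sites lay on factor mRNAs (8.26%, exact 95% interval 4.03 to 14.7), and 8 of these 10 were on EEF1A1. Without EEF1A1 the share was 2 of 113 sites, or 1.77%. All 10 overlapped a site of HITS-CLIP AEG1 replicate 1 by at least 1 nt, and 8 overlapped one of replicate 2. Over all genes 88.4% and 85.1% of the PAR-CLIP control sites did so, so in this direction the factor sites stood near the background. In the other direction they did not. Of the HITS-CLIP AEG1 factor sites, 8 of 63 (12.7%, 5.65 to 23.5) and 8 of 49 (16.3%, 7.32 to 29.7) overlapped a PAR-CLIP control site. Over all genes 1.43% and 1.59% did. These factor sites lay on EEF1A1, EEF1G or EEF2.

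Each mRNA has its own scale of deposited log2 scores, so scores are compared here within an mRNA and not between genes. For the 40 factor mRNAs that had 6 or more sites, unlogged scores were divided by 1 constant per mRNA and by 1 of 5 multipliers. The multipliers (0.943 to 1) had been read from the deposited scores. The quotients came out whole at all 560 sites (relative tolerance 2e-05). These whole numbers, called units, were not scaled by library; what 1 unit stands for was not established, and they are not used as reads. The lowest score of an mRNA follows that constant. EEF1A1 had the second lowest of all 8204 genes, at -3.56, and the median lowest score was 2.64 over the 59 factor genes and 5.99 over all genes. A PAR-CLIP AEG1 site above the median score of that library was present on 24 factor genes (40.7%), against 72.2% of all genes. Such a share ranks scores across mRNAs, so it also depends on their constants and is not read as a difference between genes.

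EEF1A1, the main carrier of aminoacyl-tRNA to the ribosome, was covered over the same stretch in all 3 AEG1 libraries. Its sites summed to 246 and 199 units in HITS-CLIP AEG1, against 1 and 0 units in the HITS-CLIP controls. PAR-CLIP AEG1 held 414 units and its control 22. Every AEG1 library was thus above its controls in units. By number of sites the order differed between methods, with 12 and 12 in HITS-CLIP AEG1 against 1 and 0 in its controls, and 4 in PAR-CLIP AEG1 against 8 in its control. One PAR-CLIP AEG1 site, from nt 4 to 1741, held 410 of the 414 units and overlapped all 8 sites of its control, which were 52 to 94 nt wide.

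Along the EEF1A1 mRNA the strongest HITS-CLIP sites lay towards the 5' end and near the middle of the covered stretch. In replicate 1 the site from nt 79 to 457 held 98 units and that from nt 920 to 1052 held 38. In replicate 2 the site from nt 227 to 471 held 75 units and that from nt 825 to 1063 held 56. No HITS-CLIP site reached past nt 1641, where PAR-CLIP AEG1 had 3 more sites of 1, 1 and 2 units, the last from nt 2385 to 2481. Of the HITS-CLIP AEG1 sites, 10 of 12 in replicate 1 and 12 of 12 in replicate 2 overlapped the other replicate. The PAR-CLIP control site from nt 1449 to 1528, with 3 units, stood above HITS-CLIP AEG1 replicate 1, where the site over it held 1 unit, and replicate 2 had none there. RefSeq lists 50 numbered pseudogenes of EEF1A1. Fragments of such copies may have been assigned to it, which was not tested, so its values are uncertain. Numbered pseudogenes were counted for EEF1A1, EEF1G, EEF2 and EIF4A1 alone, so the other genes were not checked for them.

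EEF2, the translocase of the elongating ribosome, held the most HITS-CLIP sites of the factor mRNAs. There were 14 and 17 sites in HITS-CLIP AEG1 and none in the HITS-CLIP controls. They summed to 136 and 112 units. PAR-CLIP AEG1 held 7 sites with 344 units and its control 1 site, from nt 252 to 341, with 2 units. The sites of replicate 1 ran from nt 7 to 2681 and those of replicate 2 from nt 446 to 2928. The highest score lay in the same region in both, at 4.27 from nt 1714 to 1932 in replicate 1 and at 2.86 from nt 1792 to 1936 in replicate 2. In PAR-CLIP AEG1 the highest, 6.52, belonged to a site from nt 216 to 1559, and the site from nt 1560 to 2271 had 5.04. Replicate 2 had no counterpart of the replicate 1 sites from nt 7 to 141 and from nt 294 to 442. In all, 12 of 14 and 14 of 17 sites overlapped the other replicate.

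**Figure D2:**
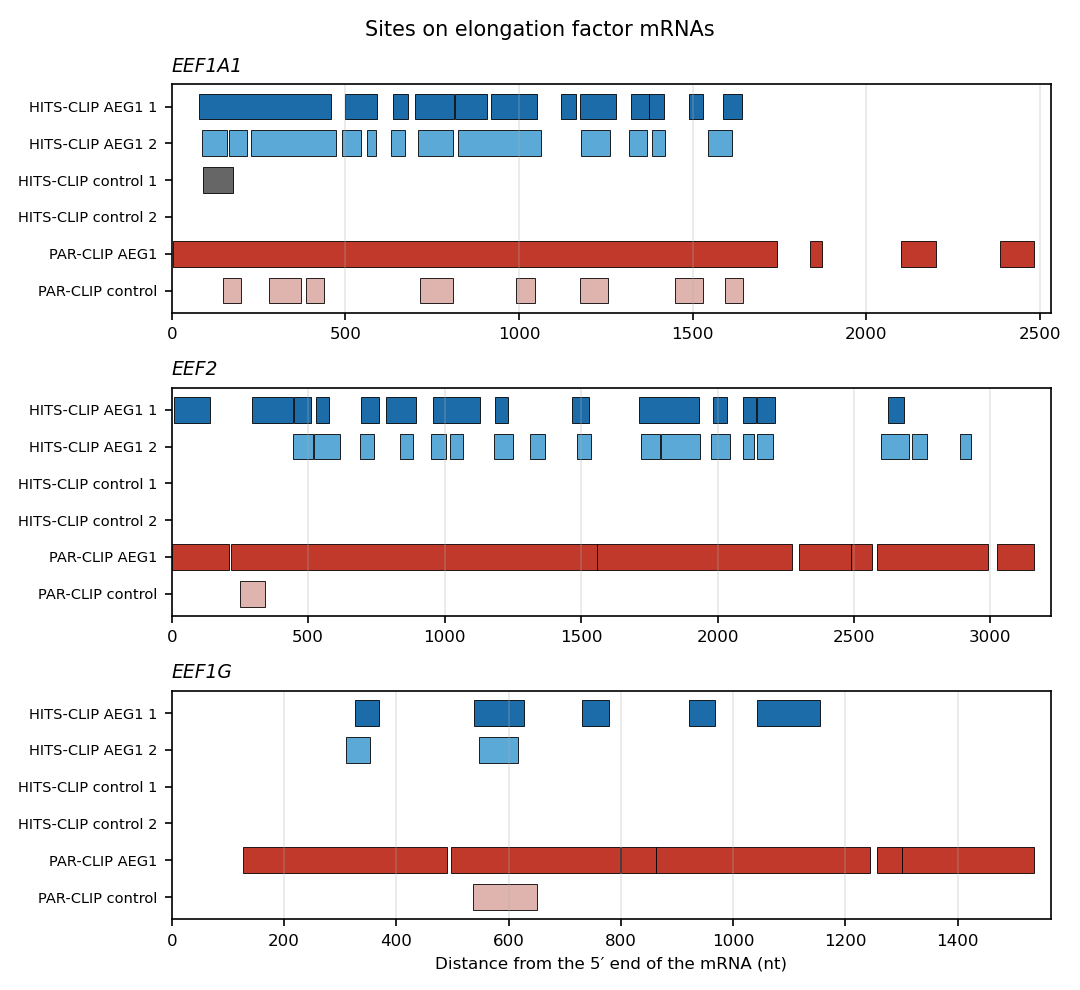
Position of every called site on the EEF1A1, EEF2 and EEF1G mRNAs, as distance from the 5′ end of the mRNA in nt, with a row for each library and a bar for each site. On EEF1A1 10 of 12 replicate 1 sites of HITS-CLIP AEG1 overlap replicate 2, on EEF2 12 of 14 and on EEF1G 2 of 5, PAR-CLIP AEG1 sites are up to 1738 nt wide, and all 8 PAR-CLIP control sites on EEF1A1 lie within the widest.

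EEF1A1 and EEF2 together held 26 of 63 factor sites (41.3%) in replicate 1 and 29 of 49 (59.2%) in replicate 2. In PAR-CLIP AEG1 they held 11 of 492 (2.24%). These shares of site numbers do not compare the methods in extent. PAR-CLIP AEG1 covered 1970 nt of EEF1A1 in 4 sites and 3075 nt of EEF2 in 7. HITS-CLIP AEG1 replicate 1 covered 1189 nt of EEF1A1 in 12 sites and 1292 nt of EEF2 in 14. Among the other elongation factors, 2 of the eEF1B subunits had sites in both replicates. EEF1G, the gamma subunit, held 5 and 2 sites with 32 and 6 units in HITS-CLIP AEG1 and no site in the HITS-CLIP controls, and 152 units in PAR-CLIP AEG1 against 6 in its control. RefSeq lists 8 numbered pseudogenes of it, so these values are uncertain. Its single control site, from nt 536 to 650, overlapped sites in all 3 AEG1 libraries, and its score of 3.04 was above the 2.46 of HITS-CLIP AEG1 replicate 2 there and below the 3.78 of replicate 1. EEF1D, the delta subunit, held 2 and 1 sites with 11 and 4 units, none of which overlapped between the replicates, and 31 units in PAR-CLIP AEG1. EEF1B2, the beta subunit, had no HITS-CLIP site and 4 PAR-CLIP AEG1 sites, the widest of 546 nt.

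EEF1A2, the paralog of EEF1A1 known from muscle and neurons, had 1 site of 3 units in HITS-CLIP AEG1 replicate 1, from nt 666 to 710, none in replicate 2, and 6 sites with 16 units in PAR-CLIP AEG1. EEFSEC, which brings selenocysteine tRNA to the ribosome, had a single site of 19 nt, from nt 1123 to 1141, in both HITS-CLIP AEG1 libraries with the same score, 6.73, and none in PAR-CLIP AEG1 or a control. EEF2K, the kinase that inhibits eEF2, and EEF1E1, a member of the multi-synthetase complex, had PAR-CLIP sites alone, 6 and 1.

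EIF4G1, the scaffold that joins the cap-binding protein to eIF3, held the most HITS-CLIP sites of the initiation factors. There were 7 and 5 sites with 42 and 27 units in HITS-CLIP AEG1, none in any control, and 24 sites with 360 units in PAR-CLIP AEG1. The HITS-CLIP sites lay in the later part of the mRNA, from nt 2318 to 5363, whereas PAR-CLIP AEG1 sites started at nt 309 and reached nt 5625. Of the 24 PAR-CLIP sites, 9 ended before the first HITS-CLIP site, with 104 of the 360 units (28.9%). The highest HITS-CLIP score was at the same place in both replicates, 6.27 from nt 2907 to 2961 and 6.40 from nt 2908 to 2961. Over the whole mRNA, 2 of 7 and 2 of 5 sites overlapped the other replicate.

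The helicase gene EIF4A1 held 4 and 3 HITS-CLIP AEG1 sites with 15 and 13 units, none in any control, and 191 units in PAR-CLIP AEG1, of which 175 were in 1 site from nt 129 to 1262. All 3 replicate 2 sites overlapped replicate 1. RefSeq lists 13 numbered pseudogenes of EIF4A1, so its values are uncertain too. Its paralog EIF4A2 had no HITS-CLIP site and 10 PAR-CLIP sites with 150 units. EIF4B and EIF4H, both helpers of the helicase, had 1 site each in replicate 1 alone, with 2 and 4 units, against 139 and 155 units in PAR-CLIP AEG1. EIF4G2, a scaffold that lacks the binding site for the cap-binding protein, had 20 PAR-CLIP sites and no HITS-CLIP site. EIF4E, the cap-binding protein itself, had 3 PAR-CLIP sites and no HITS-CLIP site. Of the 10 genes of this class with any site, EIF4G1 and EIF4A1 alone were found in both HITS-CLIP AEG1 libraries. Among all genes with any site 16.1% were.

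All 14 eIF3 genes had PAR-CLIP AEG1 sites, from 5 to 26 each, and EIF3B alone was hit in both HITS-CLIP AEG1 libraries. Over all genes with any site these shares were 97.6% and 16.1%, so the counts are not read as a trait of eIF3. EIF3B, a core scaffold of the complex, held 5 and 4 sites with 20 and 15 units, none in any control, and 266 units in PAR-CLIP AEG1. The highest HITS-CLIP score was 4.83 in both replicates, from nt 519 to 594 and from nt 504 to 596, and both also had a site from nt 894. EIF3A, EIF3C, EIF3J and EIF3M had 1 site each in replicate 1 alone, with 3, 5, 1 and 1 units. Their PAR-CLIP AEG1 units were 160, 128, 18 and 68. EIF3L and EIF3E, with 14 and 11 PAR-CLIP sites, had no HITS-CLIP site. EIF3C and EIF3CL are near-identical copies; 8 PAR-CLIP sites had the same width in both at a constant shift of 40 nt, so their fragments cannot be assigned and both are uncertain.

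**Figure D3:**
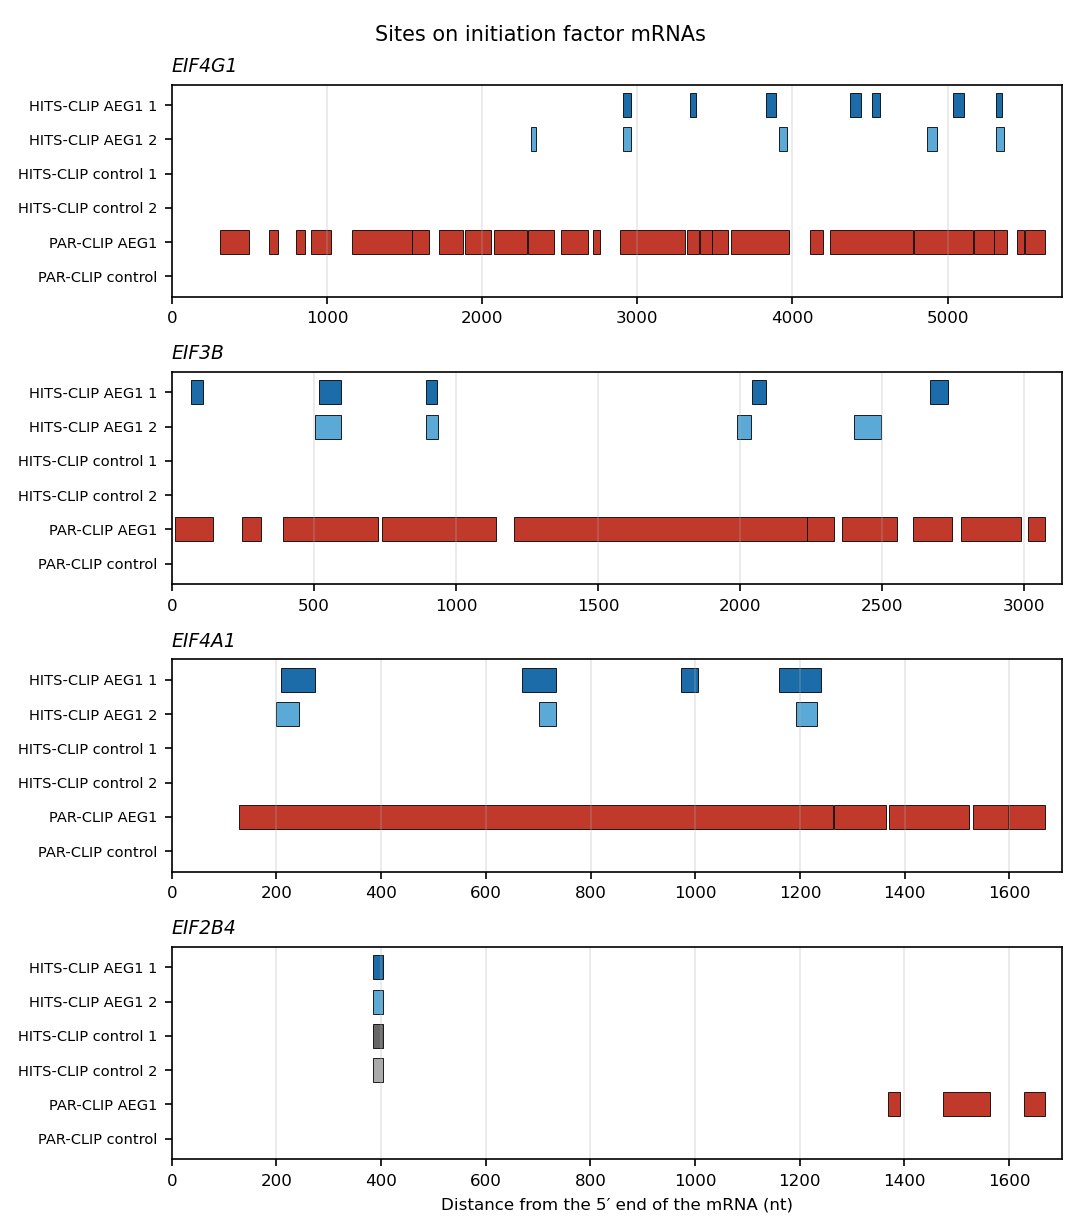
Position of every called site on the EIF4G1, EIF3B, EIF4A1 and EIF2B4 mRNAs, as distance from the 5′ end of the mRNA in nt, with a row for each library and a bar for each site. HITS-CLIP AEG1 sites on EIF4G1 begin at nt 2318, and on EIF2B4 a site at nt 384 to 403 is present in both HITS-CLIP AEG1 libraries and both controls, away from the PAR-CLIP AEG1 sites.

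The 5 genes for eIF2 and other initiator tRNA carriers with any site had no HITS-CLIP site at all. Over all genes 27.3% had one in either HITS-CLIP AEG1 library. The 5 carrier genes had 5 to 18 PAR-CLIP AEG1 sites each. EIF2S3, the gamma subunit of eIF2, had 18 with 109 units, and EIF2S1, the alpha subunit that the stress kinases phosphorylate, had 10 with 29 units. All 5 genes of eIF2B, the exchange factor of eIF2, had PAR-CLIP AEG1 sites, from 1 to 9, where 97.6% of all genes had one. EIF2B4, its delta subunit, was the only one with HITS-CLIP sites, and these were present in the controls as well. The site held 13 and 11 units in HITS-CLIP AEG1, against 8 and 7 in the controls, at nt 384 to 403 in 3 libraries and nt 385 to 403 in control 1. The scores were 7.31 and 7.07 in HITS-CLIP AEG1 against 6.61 and 6.42 in the controls, a difference of means of 0.68 on the log2 scale, with both AEG1 libraries above both controls (exact permutation test, two-sided, p = 0.333, the smallest possible with n = 2 each). By units the ratio was 1.6. At 19 to 20 nt these sites were far narrower than the median factor sites of 55 and 54 nt in HITS-CLIP AEG1, and no PAR-CLIP site overlapped them. The PAR-CLIP AEG1 sites of EIF2B4 lay from nt 1369 to 1668 with 6 units, fewer than in any HITS-CLIP library.

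EIF5A, whose protein relieves stalled ribosomes, and its copy EIF5AL1 each held 2 and 1 sites in HITS-CLIP AEG1, with 7 and 2 units and with 4 and 2 units. The site of EIF5A from nt 483 to 561 and that of EIF5AL1 from nt 394 to 472 had the same width, and the replicate 2 sites were shifted by the same 89 nt. In HITS-CLIP AEG1 replicate 1 the site of EIF5A from nt 132 to 189 and that of EIF5AL1 from nt 835 to 874 had no HITS-CLIP counterpart on the other copy. Of the 6 and 8 PAR-CLIP AEG1 sites, none had the same width at that shift. Fragments of the matching sites cannot be assigned to either copy. Both genes are therefore uncertain, and their matching sites may be 1 observation. EIF5B, the GTPase of subunit joining, had 17 PAR-CLIP sites with 60 units and no HITS-CLIP site. EIF5 and EIF1, which act in the choice of the start codon, had 19 and 7 PAR-CLIP sites, and EIF1 had 1 HITS-CLIP site of 2 units, in replicate 1. EIF4EBP2, a repressor of the cap-binding protein, had 25 PAR-CLIP sites, spread as far as nt 6810, with 67 units and no HITS-CLIP site.

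**Figure D4:**
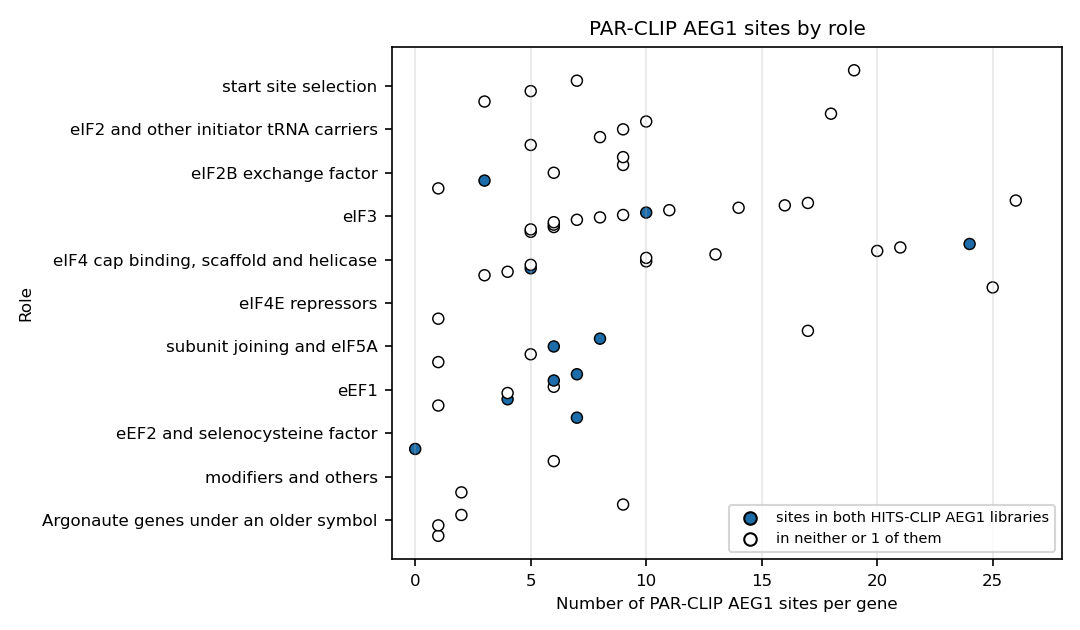
Number of PAR-CLIP AEG1 sites per gene (horizontal axis) for the 59 genes, in rows by role, with 1 circle a gene. Filled circles are the 11 genes with sites in both HITS-CLIP AEG1 libraries; they range from 0 sites (EEFSEC) to 24 (EIF4G1), and the genes with most PAR-CLIP sites, EIF3A with 26 and EIF4EBP2 with 25, are open.

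Of the Argonaute genes, EIF2C4 alone had sites outside PAR-CLIP AEG1. EIF2C4 (AGO4) had 1 in HITS-CLIP AEG1 replicate 2, from nt 112 to 141, and 1 in the second HITS-CLIP control, from nt 5784 to 5802. Its PAR-CLIP AEG1 site, from nt 5955 to 5996, overlapped neither, nor did those 2 overlap each other. EIF2C1, EIF2C2 and EIF2C3, named after their values were seen, had 2, 9 and 1 PAR-CLIP AEG1 sites and no other.

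HITS-CLIP sites mostly touched a PAR-CLIP site, but the sites seldom matched in extent. By an overlap of at least 1 nt, of the HITS-CLIP AEG1 sites 60 of 63 in replicate 1 (95.2%, exact 95% interval 86.7 to 99.0) and 46 of 49 in replicate 2 (93.9%, 83.1 to 98.7) overlapped a PAR-CLIP AEG1 site, against 90.2% and 90.4% over all genes. The mean share over both replicates was 94.6%, and it was 6.01% when the overlap had to cover 50% of each site. The exceptions to the first count were the sites on EEFSEC and EIF2B4 in both replicates, on EIF3M in replicate 1 and on EIF2C4 in replicate 2. Between replicates, by 1 nt, 35 of 63 sites (55.6%, 42.5 to 68.1) and 39 of 49 sites (79.6%, 65.7 to 89.8) overlapped. Over all genes 63.2% and 71.3% did, values that lie within the intervals. The intervals treat sites of 1 mRNA as independent, and the genes differed. Among genes with at least 4 replicate 1 sites, 10 of 12 overlapped replicate 2 on EEF1A1, 12 of 14 on EEF2 and 3 of 4 on EIF4A1. On EIF4G1 it was 2 of 7, and on EEF1G and EIF3B 2 of 5 each. On 15 factor genes (25.4%) a PAR-CLIP AEG1 site was 300 nt or wider, where 10.5% of all genes had one, and the widest were on EEF1A1, EEF2, EIF4A1 and EIF3B, at 1738, 1344, 1134 and 1031 nt.

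For 9 of the 10 genes with sites in both replicates and fitted units, PAR-CLIP AEG1 held more units than either HITS-CLIP AEG1 library. EIF2B4 was the exception. Units were fitted for factor mRNAs alone and not scaled by library, so no share over all genes stands beside this count. Over all genes PAR-CLIP AEG1 held 60085 sites, against 6378 and 5651 in HITS-CLIP AEG1. The count is thus not read as a trait of these genes. Amounts of mRNA and of bound RNA cannot be told apart in these files. PAR-CLIP AEG1 sites per gene had a median of 6.5 over factor genes and 5 over all genes, and the furthest position covered had medians of 1674.5 and 2053 nt.

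**Figure D5:**
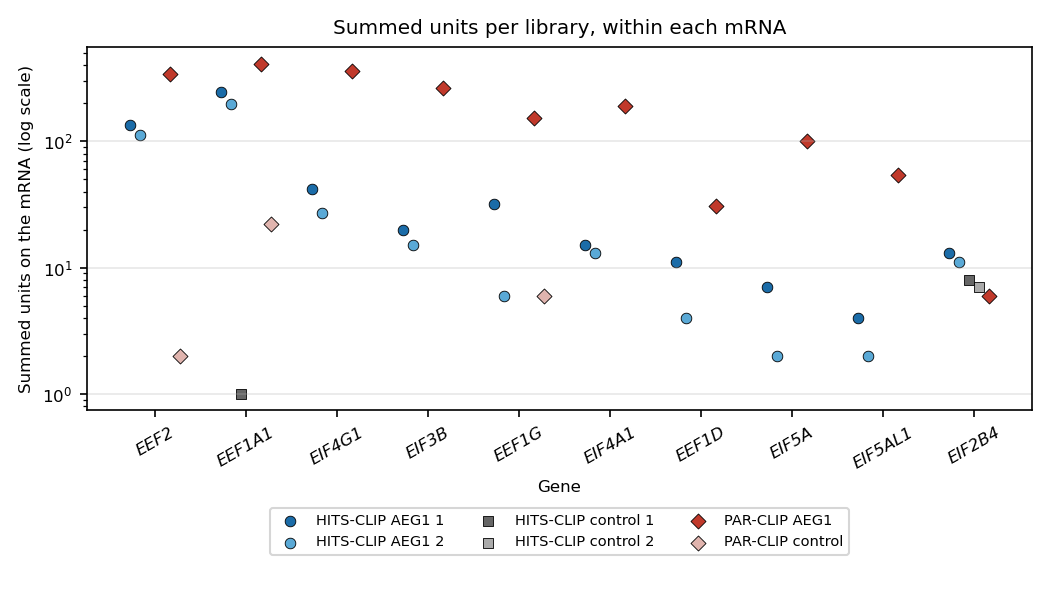
Summed units on each mRNA (vertical log axis) for the 10 factor genes with sites in both HITS-CLIP AEG1 libraries and fitted units, with 1 point a library; libraries without a site are not drawn. Units compare libraries within a gene, not genes, and were not scaled by library. PAR-CLIP AEG1 is highest for every gene but EIF2B4, where the 4 HITS-CLIP libraries lie between 7 and 13.

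Among 22 related genes of translation outside the rule, 20 had PAR-CLIP AEG1 sites, 2 were hit in both HITS-CLIP AEG1 libraries and none had a site in a control. Over all 8204 genes these shares were 97.6%, 16.1% and 1.76%, so few or no control sites would be usual for a list of this size. The 2 genes were PABPC1, the poly(A)-binding protein, with 3 and 3, and the termination factor GSPT1 with 2 and 1. LARP1, which binds TOP mRNAs, had 40 PAR-CLIP sites and no HITS-CLIP site.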

How the data were processed

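RNA attached to HA-tagged AEG1 was measured in 6 libraries, sequenced as 50 nt single reads per the labels' protocols. The submitters' processing notes name Bowtie (site caller and threshold not given in the sources used here). In the deposited files, 1 per library, a site has an mRNA accession, a gene symbol, its start and end on that mRNA and a log2 score that the authors computed. Starts were taken as 0-based and are printed 1-based. The read depth is unknown, so no count model was run.

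Presence, site numbers, covered positions, overlaps (at least 1 nt) and units were computed with Python 3.11.15, pandas 2.3.3, NumPy 2.4.6 and SciPy 1.17.1. Shares carry exact Clopper-Pearson 95% intervals, which treat sites of 1 mRNA as independent. The unit fit was tested on simulated data for 40 transcripts and recovered all 40. That shows that the fit works on such data and does not test the unit in the deposited scores. The 59 accessions matched RefSeq. Members and lists were chosen with earlier results of these data known. The genes named are those with a site in a HITS-CLIP library or a control and the 10 others with most PAR-CLIP sites (ties by symbol, which left out EIF4A3 at 10 sites); EEF1B2, EEF2K, EEF1E1, EIF4E, EIF2C1, EIF2C2, EIF2C3 and the related genes were added after their values were seen. Alternatives covered stricter overlap, score and site minimums, short sites and single replicates.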

Additional observations from a re-analysis of the deposited data

Results flagged for a closer look

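EEF1A1 stands out because the number of sites moved in opposite directions in the 2 methods. PAR-CLIP AEG1 minus its control was -4 sites, while both HITS-CLIP AEG1 libraries were above both controls. The difference between methods was not tested, since PAR-CLIP has 1 library a group, and by units both methods had more in AEG1 than in the controls.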

How the results depend on the processing

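The count of 11 factor genes with sites in both HITS-CLIP AEG1 libraries was 6 with at least 2 sites required in each and 2 with sites above the median score of the library; from 1 library alone it was 12 to 19, replicate 1 giving the higher count. The count of 58 with a PAR-CLIP AEG1 site was 24 with sites above the median score. Both counts by the median score also depend on the score scale of each mRNA. The mean share of HITS-CLIP AEG1 sites that overlapped a PAR-CLIP AEG1 site, 94.6%, was 6.01% when the overlap had to cover 50% of each site, 98.1% without sites of 25 nt or less, and 93.9% to 95.2% with 1 replicate left out. The difference of 54 sites between HITS-CLIP AEG1 and its controls was 47 to 61 with 1 replicate number left out and 54 with the replicate number as a block, where it is the same by construction. Settings that left out Argonaute genes and copies or single replicates of the PAR-CLIP overlap were chosen after seeing the data. All other settings moved their result by less than 1.5 times or 1 SD.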
